A study of Homo sapiens with 6 samples.

Results

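Transcripts of 7 cytoplasmic intermediate filament genes (*VIM*, *KRT8*, *KRT18*, *KRT19*, *KRT10*, *KRT1* and *NES*) were followed in a human leukemia line after inhibition of EZH2, the catalytic subunit of the Polycomb repressive complex PRC2. The members were chosen by gene symbol, through the GENCODE version 44 names of the Ensembl gene identifiers, and all 7 were found among the 60671 gene rows of the count files. The libraries come from K562, a chronic myeloid leukemia line, here as 1 clone that carries Flag-NLS-M.CviPI-Lamin-B1, a doxycycline-inducible fusion of a GpC methyltransferase to Lamin B1. In 3 separate cultures the clone received DMSO at 0.1% v/v for 72 h, and in 3 others the EZH2 inhibitor GSK343 at 1 µM for 72 h (EZH2i). All 6 cultures, the DMSO controls included, received doxycycline at 1 µg/mL for the final 24 h, so no group without the induced fusion is compared. RNA was read by 3′ mRNA sequencing, which counts transcripts near their polyadenylated end, and between 6327544 and 8987768 reads per library were counted on genes. The question addressed here is whether the level of filament transcripts differs when EZH2 is blocked.

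Intermediate filaments are rope-like polymers that give cells resistance to stretch. Vimentin, encoded by *VIM*, is the filament protein of mesenchymal and most blood cells and polymerizes with itself. Keratins are obligate heteropolymers of a type I and a type II chain: *KRT8* (type II) pairs with *KRT18* (type I) in simple epithelia, often with *KRT19* (type I), whereas *KRT1* (type II) and *KRT10* (type I) pair in the suprabasal layers of the epidermis. Nestin, encoded by *NES*, is found in neural and other progenitor cells and co-assembles with vimentin. PRC2 places the repressive mark H3K27me3, and many of its targets in other systems have promoters rich in CpG dinucleotides.

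The members lie on chromosomes 1, 10, 12 and 17 (GRCh38, GENCODE version 44). *VIM* (ENSG00000026025) spans chr10:17228241-17237593 on the plus strand and *NES* (ENSG00000132688) spans chr1:156668763-156677407 on the minus strand. *KRT1* (ENSG00000167768; chr12:52674736-52680407), *KRT8* (ENSG00000170421; chr12:52897187-52949954) and *KRT18* (ENSG00000111057; chr12:52948871-52952906) are in the keratin cluster of chromosome 12, *KRT18* being the only member there on the plus strand. *KRT10* (ENSG00000186395; chr17:40818117-40822614) and *KRT19* (ENSG00000171345; chr17:41523617-41528308) are in that of chromosome 17, both on the minus strand. Exons of *KRT8* and *KRT18* share 525 bases on opposite strands, at the 5′ ends of both genes and so away from the 3′ ends that these libraries read. Exons of *VIM* share 656 bases with *VIM-AS1* and 619 with an unnamed lncRNA, and those of *KRT10* share 61 with *KRT10-AS1*, all on the opposite strand. The strand setting of the counting is not given in the sources used here, and without strand the reads of a gene and its antisense partner cannot be told apart. The 6 libraries together held 53925 reads on *VIM* and 267 on *VIM-AS1*, and 2791 on *KRT10* and 1520 on *KRT10-AS1*.

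The promoters of *VIM*, *KRT10* and *NES* are printed because these are the 3 members whose DMSO and EZH2i libraries did not overlap in level, and because CpG content is a feature of promoters that PRC2 can bind. Each is the 250 bases before the RefSeq start of the gene on its own strand, 5′ to 3′ (GRCh38.p14), with every CG dinucleotide in capitals; *VIM* is at chr10:17227991-17228240 (plus strand), *KRT10* at chr17:40822615-40822864 (minus strand) and *NES* at chr1:156677408-156677657 (minus strand).
VIM: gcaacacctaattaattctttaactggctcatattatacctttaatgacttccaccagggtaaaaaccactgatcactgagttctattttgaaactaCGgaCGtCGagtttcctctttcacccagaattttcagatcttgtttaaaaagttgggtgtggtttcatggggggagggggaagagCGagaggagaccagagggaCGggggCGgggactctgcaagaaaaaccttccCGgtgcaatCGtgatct
KRT10: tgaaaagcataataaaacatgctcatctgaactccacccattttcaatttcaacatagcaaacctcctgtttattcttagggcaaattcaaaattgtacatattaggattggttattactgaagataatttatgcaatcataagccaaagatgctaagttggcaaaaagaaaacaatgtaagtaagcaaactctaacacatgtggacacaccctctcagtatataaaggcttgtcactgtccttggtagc
NES: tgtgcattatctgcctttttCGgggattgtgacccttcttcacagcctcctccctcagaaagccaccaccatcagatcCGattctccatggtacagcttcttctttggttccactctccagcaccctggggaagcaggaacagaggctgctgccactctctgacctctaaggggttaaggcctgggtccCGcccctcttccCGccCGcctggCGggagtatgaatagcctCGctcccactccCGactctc
The *VIM* and *NES* stretches held 8 CG dinucleotides each and the *KRT10* stretch held 0, where the median of all 35116 RefSeq promoters of that length was 11. Fewer than 8 were held by 43.7% of promoters. The GC box GGGCGG, searched on both strands, was found 1 time in *VIM*, 2 times in *NES* and 0 times in *KRT10*, and 42.6% of all promoters hold it. The TATA box TATAAA, searched on the gene's own strand, was found 1 time in *KRT10* and in neither of the others, and 6.80% of all promoters hold it. *KRT8* also had an entry, with 1 CG dinucleotide, but the RefSeq start it uses is not the GENCODE start given above; *KRT18*, *KRT19* and *KRT1* were not matched.

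Upon EZH2 inhibition none of the 6 detected filament genes changed by an amount that passed the test, and the estimates were small in both directions. *VIM* was at 0.811 times its DMSO level and *NES* at 1.31 times, and the 4 detected keratins lay between 0.834 and 1.14 times. Expression is given as CPM, reads per 1000000 reads on genes, with library sizes scaled by edgeR's TMM factors, and genes were tested with edgeR's quasi-likelihood test over the 12364 genes that passed its filter on low counts, at an adjusted p under 0.05. *KRT1* had no read and could not be tested, so 6 of the 7 members entered the test. Of these, 0 were called in either direction, against 4.26% of all tested genes (3.34% higher and 0.922% lower). At an unadjusted p under 0.05 there were 3 of 6 members (*VIM* and *KRT10* lower, *NES* higher), against 19.1% of all tested genes (10.9% higher and 8.21% lower). DESeq2 also called 0 of the 6, with 3 at an unadjusted p under 0.05, against 3.13% called of the 14023 genes to which it gave an adjusted p. Its share at that unadjusted p, 8.10%, is over all 26226 genes with a read, of which 12364 passed the filter used above, and cannot be set beside the 19.1%. Of the 6 estimates 3 were above 0 and 3 below, with a median log2 fold change of 0.04, against a median of -0.0002 over all tested genes. In the same 3 members the libraries of the 2 groups did not overlap, which was so for 24.5% of all tested genes (EZH2i above in 13.3%, below in 11.1%). In bulk RNA, fewer cells with a transcript and less transcript per cell cannot be told apart.

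**Figure D1:**
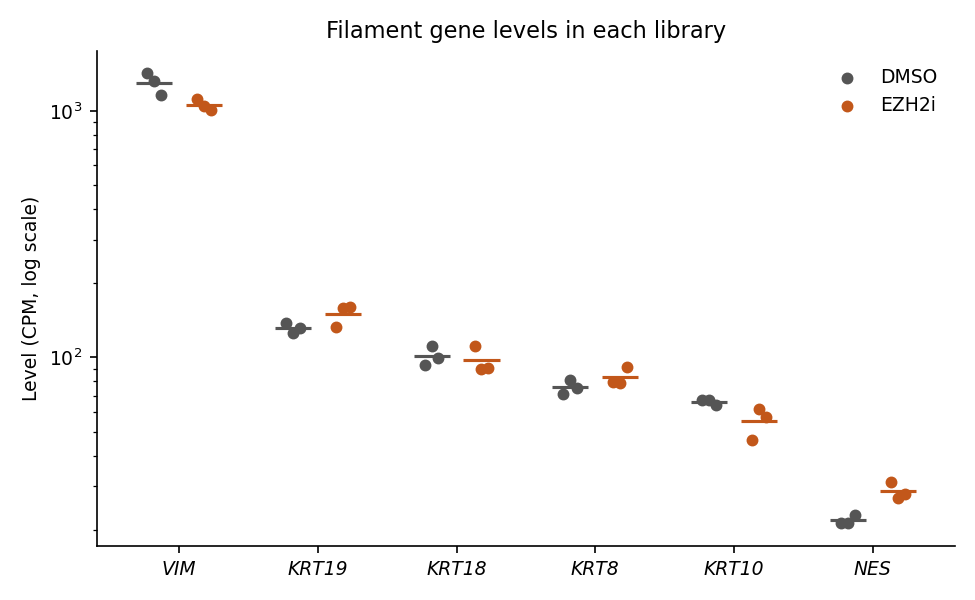
Level of each detected filament gene in CPM on a log axis; each point is a library, 3 DMSO (grey) and 3 EZH2i (orange), and the line is the group mean. *VIM* sits between 1003 and 1419.6 CPM and the other genes between 21.3 and 160.0; *KRT1*, at 0 in all 6 libraries, is not drawn.

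Vimentin was by far the most abundant filament transcript of these cells. *VIM* was at 1419.6, 1322 and 1158 CPM in DMSO replicates 1, 2 and 3, and at 1114, 1044 and 1003 CPM in EZH2i replicates 1, 2 and 3. All 3 EZH2i libraries were below the lowest DMSO library, but the nearest values, 1158 and 1114, were closer to each other than the DMSO libraries were among themselves. The means were 1300.0 ± 132 CPM in DMSO libraries and 1054 ± 56.0 in EZH2i libraries (SD, n = 3 each). The log2 fold change was -0.30 (standard error 0.105, adjusted p = 0.116, edgeR), which does not pass the threshold, with a 95% interval from -0.53 to -0.08 that is not adjusted for the number of genes. *VIM* ranked 1119 of 12364 by p-value. Only some other settings brought *VIM* close to the threshold. The adjusted p was 0.0503 with DESeq2 and 0.0445 in edgeR without a filter on low counts, where 3.54% of genes were called. In edgeR it was 0.106 with RLE size factors in place of TMM and 0.128 with at least 10 reads in every library. With a replicate block it was 0.154, and with pseudogene reads added 0.116 (edgeR). It lay between 0.0586 and 0.335 when each library was left out in turn (6 fits, 0 calls).

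The estimate for nestin was on the other side of 0, again short of the threshold. *NES* was at 21.3, 21.4 and 22.9 CPM in DMSO replicates 1, 2 and 3, and at 31.3, 26.9 and 27.9 CPM in EZH2i replicates 1, 2 and 3. The EZH2i libraries were all above the DMSO libraries, which lay within 2 CPM of each other. The means were 21.9 ± 0.926 and 28.7 ± 2.31 CPM (SD, n = 3 each). This is 0.39 as a log2 fold change (standard error 0.133, 95% interval 0.11 to 0.67, adjusted p = 0.11, edgeR). The value rests on 136 to 231 reads per library, compared with 7002 to 11136 for *VIM*. *NES* had the smallest p-value of the members, ranking 1046 of 12364, and no alternative called it, the adjusted p ranging from 0.11 to 0.274.

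The simple epithelial keratins were all detected in this blood cell line, the highest of them 9.87-fold below vimentin in CPM in DMSO and 6.997-fold in EZH2i, and none was called. *KRT19* was at 138, 126 and 132 CPM in DMSO replicates 1, 2 and 3, and at 133, 159 and 160.0 CPM in EZH2i replicates 1, 2 and 3. EZH2i replicate 1 lay among the DMSO libraries and the other 2 above them. The log2 fold change was 0.19 (standard error 0.106, 95% interval -0.03 to 0.42, adjusted p = 0.335, edgeR). *KRT8*, which encodes the type II chain, was at 71.0, 81.1 and 75.5 CPM in DMSO and at 79.5, 79.1 and 91.1 CPM in EZH2i replicates 1, 2 and 3. These groups overlapped, and the log2 fold change of 0.13 (standard error 0.108, 95% interval -0.10 to 0.36, adjusted p = 0.546, edgeR) was 0.06 without EZH2i replicate 3. *KRT18*, the type I partner of *KRT8*, was at 93.1, 111 and 99.5 CPM in DMSO and at 111, 89.9 and 90.2 CPM in EZH2i replicates 1, 2 and 3. EZH2i replicate 1 lay within the DMSO range and the other 2 below it, with a log2 fold change of -0.06 (standard error 0.115, 95% interval -0.31 to 0.18, adjusted p = 0.824, edgeR) whose sign turned without DMSO replicate 2, to 0.01. For these 3 keratins the intervals leave room for a change of at most 1.34-fold up and, at the lower end, to 0.809 times the DMSO level.

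The epidermal keratins parted. *KRT10*, the type I chain of suprabasal epidermis, was at 66.9, 67.1 and 64.3 CPM in DMSO replicates 1, 2 and 3, and at 46.2, 61.5 and 57.6 CPM in EZH2i replicates 1, 2 and 3. Every EZH2i library was below every DMSO library, with EZH2i replicate 1 the lowest of all. The log2 fold change was -0.26 (standard error 0.12, 95% interval -0.51 to -0.01, adjusted p = 0.243, edgeR), and it was -0.15 without EZH2i replicate 1. *KRT1*, its type II partner in the epidermis, had 0 reads in all 6 libraries, which allows up to 3 reads or from 0.340 to 0.469 CPM per library, counting error only. *KRT10* was thus read without *KRT1* in both groups. Of the 8 genes of the cornified envelope, the barrier that suprabasal keratinocytes build, 6 were at 0, among them *IVL* and *FLG*, and 0 were tested.

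**Figure D2:**
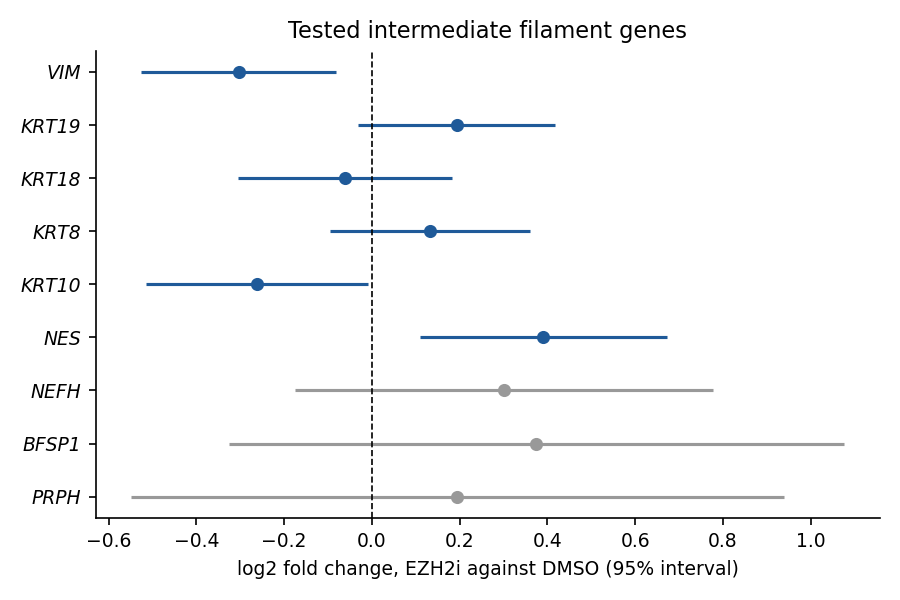
The log2 fold change of EZH2i against DMSO for each tested filament gene, with its 95% interval as a bar; members are blue and other tested filament genes grey. The intervals of *VIM* (-0.53 to -0.08) and *KRT10* lie below 0 and that of *NES* (0.11 to 0.67) above it, before adjustment over genes, and all others span 0.

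The order of the levels was the same in both groups. Reads from 3′ libraries are taken near the polyadenylated end and need not scale with transcript length, so plain CPM is the first scale between genes. Dividing by length can set a long transcript too low, that of *NES* being 5.57 kb. As a second scale only, CPM was divided by the length of the canonical transcript in kb. On this scale DMSO levels were 604 ± 61.3 CPM per kb for *VIM*, 94.8 ± 4.49 for *KRT19*, 71.7 ± 6.57 for *KRT18*, 42.5 ± 2.83 for *KRT8*, 30.9 ± 0.719 for *KRT10* and 3.92 ± 0.166 for *NES* (SD, n = 3 each). In EZH2i they were 489 ± 26.0, 108 ± 11.0, 68.8 ± 8.69, 46.7 ± 3.82, 25.7 ± 3.72 and 5.15 ± 0.415 CPM per kb in the same order (SD, n = 3 each). Per kb, no neighbours in this order overlapped in either group. In plain CPM the exception was *KRT18* and *KRT8* in EZH2i, whose libraries reached down to 89.9 and up to 91.1 CPM. The step from *VIM* to *KRT19* was 6.37-fold per kb in DMSO and 4.52-fold in EZH2i.

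The make-up of the filament transcripts is a ratio within each library and does not depend on scaling between libraries. For each read on *KRT8*, *KRT18* or *KRT19* there were 4.70, 4.16 and 3.78 reads on *VIM* in DMSO replicates 1, 2 and 3, against 3.44, 3.19 and 2.94 in EZH2i replicates 1, 2 and 3. The groups did not overlap, and the mean went from 4.21 ± 0.462 to 3.19 ± 0.251 (SD, n = 3 each). On the log2 scale the ratio differed by -0.40 (EZH2i minus DMSO; two-sided exact permutation p = 0.1, the smallest that 3 libraries against 3 allow), so this test cannot go under 0.05 here. *VIM* held 75.9% ± 1.91 of all reads on cytoplasmic filament genes in DMSO and 70.8% ± 1.45 in EZH2i, while *KRT19* held 7.73% ± 0.616 and 10.2% ± 1.32 and *NES* 1.29% ± 0.158 and 1.93% ± 0.11 (SD, n = 3 each). Shares of a total move against each other, so these are a single comparison seen from several sides.

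The ratio of the partner keratins overlapped between the groups and spread more among the EZH2i libraries. Reads on *KRT8* were 0.763, 0.728 and 0.758 times those on *KRT18* in DMSO replicates 1, 2 and 3 and 0.714, 0.879 and 1.01 times in EZH2i replicates 1, 2 and 3. EZH2i replicate 1 was the lowest of all 6 libraries and EZH2i replicate 3 the highest. The log2 ratio differed by 0.20 (EZH2i minus DMSO; two-sided exact permutation p = 0.4), less than the SD of 0.25 among the EZH2i libraries. It was 0.08 without EZH2i replicate 3 and 0.33 without EZH2i replicate 1, and the difference in spread was not tested.

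**Figure D3:**
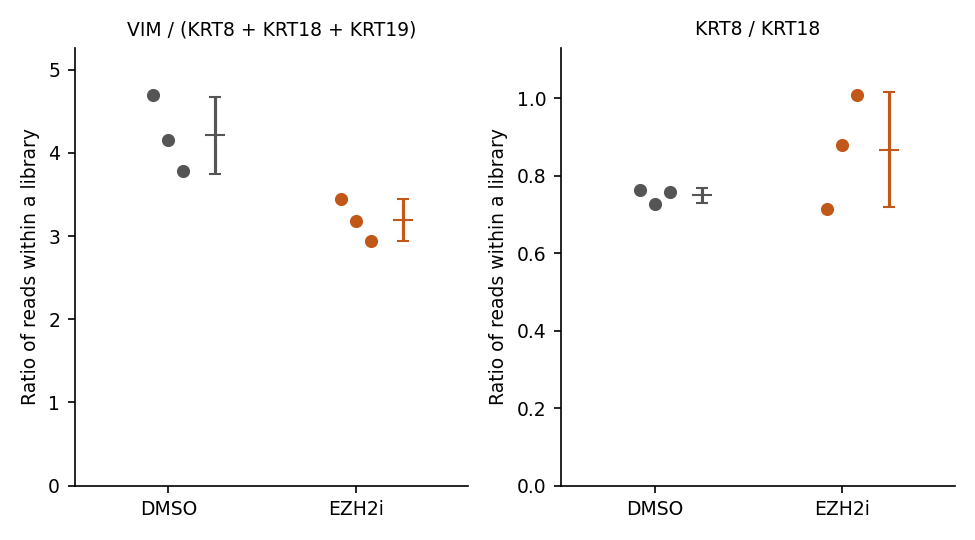
Ratio of reads within each library, *VIM* to the sum of *KRT8*, *KRT18* and *KRT19* on the left and *KRT8* to *KRT18* on the right; points are libraries, and the bar beside them is the mean with 1 SD. The left ratio is 3.78 or more in DMSO and 3.44 or less in EZH2i, and the right one overlaps between groups.

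Processed pseudogenes, of which the simple keratins have many, can take or lend reads. The files list 51 pseudogenes of *KRT8*, 67 of *KRT18* and 5 of *KRT19*, and 0 of *VIM*, *KRT10*, *KRT1* and *NES* by the symbol rule used. Their reads over the 6 libraries were 60 against 3652 on *KRT8* itself, 141 against 4575 on *KRT18* and 1 against 6458 on *KRT19*. Adding them to their parent gene left the log2 fold changes of these 3 keratins between -0.05 and 0.19. Reads that aligned to several places, from 21.4% to 22.3% of those listed per library, are in no gene's count, so the levels of *KRT8* and *KRT18* may be understated, and both are uncertain in that respect.

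Most other genes of the family were silent or nearly so in both groups. Of 60 other cytoplasmic filament genes 41 had 0 reads in all 6 libraries and 3 passed the filter on low counts, with 0 called at an adjusted p under 0.05 and 0 at an unadjusted p under 0.05 (edgeR, and 0 with DESeq2 after adjustment). The 3 were *NEFH*, the heavy neurofilament chain, at 6.60 ± 0.605 CPM in DMSO libraries and 8.10 ± 1.84 in EZH2i libraries, *BFSP1*, the lens filament protein filensin, at 4.08 ± 0.647 and 5.23 ± 2.51, and *PRPH*, peripherin of peripheral neurons, at 2.37 ± 0.839 and 2.76 ± 0.537 (SD, n = 3 each). Their log2 fold changes were 0.30, 0.37 and 0.19, with adjusted p of 0.5, 0.589 and 0.818 from edgeR. *KRT15*, a type I keratin of basal epidermis, followed with 3, 8 and 4 reads in DMSO and 12, 22 and 5 in EZH2i replicates 1, 2 and 3, too few to be tested. *KRT13*, next in level, had at most 1 read in a DMSO library and at most 3 in an EZH2i library. The keratin clusters were therefore read at single genes: on chromosome 12, 21 of 27 keratin genes were at 0, and *KRT8* and *KRT18* held 99.9% of 8232 keratin reads over the 6 libraries. On chromosome 17, 17 of 28 were at 0, and *KRT19* and *KRT10* held 99.2% of 9324 reads.

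Vimentin and keratins are also markers of other cells, so the identity of the libraries was checked. All 10 K562 erythroid and myeloid markers had reads, with *GATA1* from 74.8 to 106 CPM and *TFRC* from 248 to 359.5 CPM over the 6 libraries. Of the 9 tested, the embryonic globin *HBZ* and the fetal globin *HBG2* rose (log2 fold changes 1.15 and 0.58, edgeR adjusted p = 6.1e-05 and 0.0251). Of 6 keratinocyte markers 3 were at 0 (*KRT5*, *COL17A1* and *CDH3*), and the list summed to 0 to 1 reads per DMSO library and 0 to 4 per EZH2i library; the 4 endothelial markers summed to at most 1 read in each library. Fibroblasts are rich in vimentin, and of 7 fibroblast markers 5 had reads, with *LUM* and *THY1* at 0, and the list summed to 1.41 to 2.84 CPM per DMSO library and 5.82 to 9.02 per EZH2i library. Most of those reads were on *COL1A1*, a collagen chain, at 1.57 ± 0.507 and 6.04 ± 1.91 CPM (SD, n = 3 each), which rose with 1.91 in log2 fold change (edgeR, adjusted p = 0.00424). Of 4 lymphocyte markers *MS4A1* was at 0 and *CD3E* had at most 8 reads, while *CD3D* was at 63.8 ± 5.82 CPM in DMSO libraries and 88.0 ± 9.57 CPM in EZH2i libraries (SD, n = 3 each) and rose (adjusted p = 0.0309, edgeR); what part these markers have in the filament values was not tested. EZH2i replicate 3 stood apart in the share of reads on no gene, 12.7% against 7.43% to 8.51% in the other libraries. Without it the log2 fold change of *VIM* was -0.27 and that of *NES* 0.41.

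Genes around the filaments were read from 9 lists, 82 genes in all, of which 53 were tested. The lists hold lamins, plakins, desmosome genes, kinases, genes of filament binding, folding and turnover, and actin and tubulin genes, and beside these the cornified envelope genes given above and genes of the epithelial and the mesenchymal state. Upon EZH2 inhibition 3 of them rose and 0 fell, 5.66% of those tested against the 4.26% of all tested genes given above, a share near the background. At an unadjusted p under 0.05 there were 19 of the 53, a larger share than the 19.1% of all tested genes (2366 of 12364, edgeR). The 3 were *PAK1*, *HSPB1* and *TUBA1A*. *PAK1*, a kinase that phosphorylates vimentin, was at 14.96 ± 2.80 CPM in DMSO libraries and 23.0 ± 1.89 in EZH2i libraries (SD, n = 3 each). Its log2 fold change was 0.62 (edgeR, adjusted p = 0.0384). Its call was lost with DESeq2 (adjusted p = 0.0744) and in 4 of 6 fits with a library removed, with adjusted p of 0.159 and 0.133 without DMSO replicates 1 and 3 and 0.0958 and 0.0884 without EZH2i replicates 2 and 3 (edgeR). *HSPB1*, a small heat shock protein that binds filaments and hinders their aggregation, was at 319 ± 30.1 and 449 ± 40.2 CPM (SD, n = 3 each). Its log2 fold change was 0.50 (edgeR, adjusted p = 0.0148), a call lost without DMSO replicate 1 or 2 or EZH2i replicate 3 (adjusted p = 0.0741, 0.0895 and 0.0579, edgeR). *TUBA1A*, an alpha tubulin, rose from 36.9 ± 3.08 CPM to 60.9 ± 2.34 (SD, n = 3 each). Its log2 fold change was 0.72 (edgeR, adjusted p = 0.0017), and it was called in all 11 alternatives.

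By role, the partner lists stood as follows. Of the 11 kinases that phosphorylate filament proteins all were tested and *PAK1* alone was called; *PRKCE*, a protein kinase C, had the largest estimate, 0.85 in log2 fold change (edgeR, adjusted p = 0.0514). Of 16 binding, chaperone and turnover genes all were tested and *HSPB1* alone was called, and *SFN*, a 14-3-3 protein that binds keratin 18, stood at -0.53 in log2 fold change (edgeR, adjusted p = 0.262). Of 7 plakins, the proteins that tie filaments to junctions and to the rest of the cytoskeleton, 4 were tested and 0 called, with *DST* at 0.44 (adjusted p = 0.0875) and *MACF1* at 0.16 (adjusted p = 0.579) in edgeR's log2 fold change. Of 11 desmosome genes, whose proteins anchor keratin at cell contacts, 6 were tested and 0 called, with *PKP2* at 0.84 (adjusted p = 0.0843) and *PKP4* at 0.10 (adjusted p = 0.661, edgeR). The nuclear lamins, the relatives of these filaments inside the nucleus, had 0 of 3 called, with *LMNB2* at -0.41 (adjusted p = 0.0875) and *LMNA* at -0.27 (adjusted p = 0.252, edgeR). Of 8 actin and tubulin genes 8 were tested and *TUBA1A* alone was called, and *ACTG1*, a cytoplasmic actin, stood at -0.38 in log2 fold change (edgeR, adjusted p = 0.144).

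**Figure D4:**
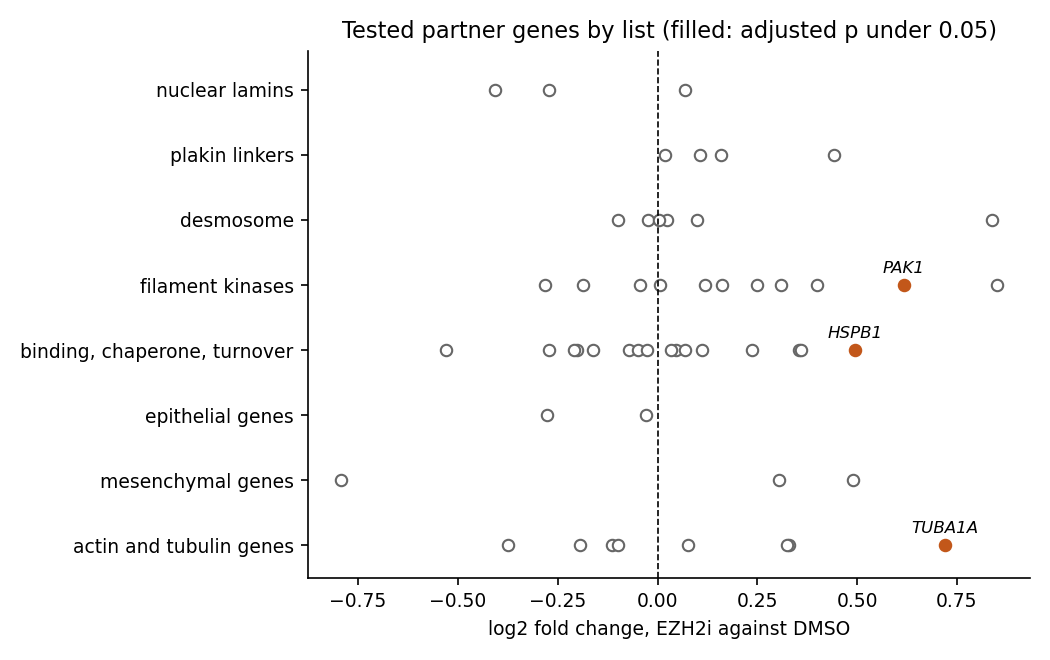
The log2 fold change of EZH2i against DMSO for each tested partner gene, by list; each point is a gene, and filled points passed an adjusted p under 0.05. Filled points are *PAK1* at 0.62, *HSPB1* at 0.50 and *TUBA1A* at 0.72, and none lies below 0.

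Vimentin and the simple keratins are read as opposite poles of the epithelial to mesenchymal axis, so genes of that axis were placed beside them. Of 10 epithelial genes 2 were tested and 0 called: *EPCAM*, an adhesion protein, stood at -0.28 in log2 fold change (edgeR, adjusted p = 0.156) and *CLDN7*, a claudin, one of -0.03 (adjusted p = 0.955, edgeR). Reads on the epithelial cadherin *CDH1* were 0 in each DMSO library and at most 2 in an EZH2i library. Of the 10 epithelial genes 3 had 0 reads in all 6 libraries. Of 8 mesenchymal genes 4 had 0 reads in all 6 libraries (*SNAI2*, *TWIST1*, *TWIST2* and *CDH2*), and *FN1* had at most 2 reads in a library. From that list 3 genes were tested and 0 called, with 2 estimates above 0 and 1 below. *ZEB1*, a repressor of epithelial genes, was at 0.49 (adjusted p = 0.0659) and *SNAI1*, another, at -0.79 (adjusted p = 0.0875) in edgeR's log2 fold change, and *ZEB2*, a relative of *ZEB1*, at 0.30 (adjusted p = 0.206). At an unadjusted p under 0.05 there were 1 of the 2 epithelial and 3 of the 3 mesenchymal genes tested, all among the 19 given above, against 19.1% of all tested genes.

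**Figure D5:**
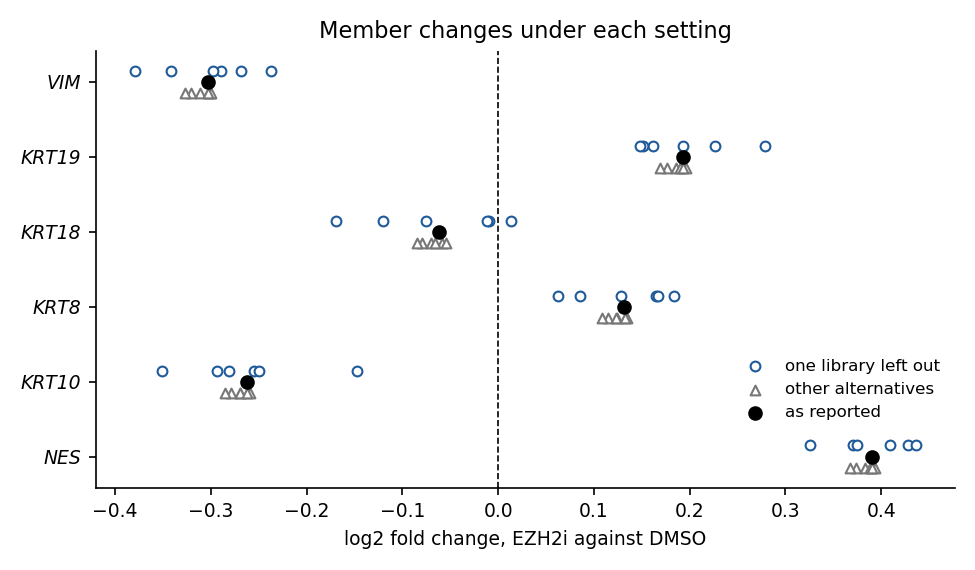
The log2 fold change of each detected member as reported (black), in 6 fits with a library removed (open circles) and under the other 6 alternatives (open triangles). *VIM* and *KRT10* stay below 0 and *NES*, *KRT19* and *KRT8* above it in every fit drawn; *KRT18* reaches 0.01 without DMSO replicate 2.

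The genes whose profiles over the 6 libraries were nearest to those of *VIM* and *NES* are given as a description. Nearness was the root mean square distance between log2 CPM profiles, each centred on its own mean. Nearest to *VIM* were *AZIN1*, *GHITM* and *THAP1*, at distances of 0.0377, 0.0411 and 0.0457, and nearest to *NES* were *CDCA7L*, *TIMP1* and *POU4F1*, at 0.0210, 0.0228 and 0.0302. They were chosen as the nearest among 12364 tested genes over only 6 libraries.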

How the data were processed

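QuantSeq 3′ FWD libraries of 3 DMSO and 3 EZH2i cultures were sequenced as 50-base single-end reads. The submitters' processing notes name STAR 2.6.0c, HTSeq 0.11.2 and DESeq2, and the build GRCh38. The authors deposited raw counts per Ensembl gene for each library, without normalization or pooling; the gene annotation was obtained from Ensembl per the study's methods, and the strand setting and any use of molecular identifiers are not given in the sources used here. A further deposited table holds the authors' own comparison (fold changes, test statistics and p-values) and was not used. Rows that name no gene, from 32.1% to 36.4% of listed reads, entered neither library sizes nor tests.

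Names came from GENCODE version 44 on the same build (60401 of 60671 identifiers matched) and promoters from RefSeq (4 of 7 members matched). The test was that of edgeR 4.0.16, run in R 4.3.3 (TMM, filterByExpr with a minimum count of 10, glmQLFit, glmQLFTest, two-sided, Benjamini-Hochberg adjustment over 12364 genes, threshold 0.05; common dispersion 0.0129). The standard error is the log2 fold change divided by the square root of F. Ratios were tested by exact permutation. Alternatives were DESeq2 1.42.0, RLE size factors, other filters, pseudogene reads added to their parents, a replicate block, and leaving out each library. Fits were also run on simulated counts with planted folds larger than those of the members and the same dispersion for every gene. That run does not show how often changes as small as those of the members would be called. Replicates of a group differed by more than sampling noise (chi-square divided by its degrees of freedom, 4.56 to 12.7).

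The members and lists were chosen with earlier results of these data known. Named were the members, all called genes of each list and the 2 tested genes of largest absolute log2 fold change per list, and of other filament genes the 5 of highest level. A lymphocyte marker that this rule names is not reported here.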

Additional observations from a re-analysis of the deposited data

How the results depend on the processing

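Over all genes 527 were called (413 higher, 114 lower), 928 without a filter on low counts (349 lower), and from 209 to 536 in the fits without one library (180 to 412 higher, 20 to 124 lower), the lowest totals being 213, 209 and 240 without DMSO replicates 1, 2 and 3. The share of calls that were higher was 78.4%, against 67.4% with DESeq2, 62.4% without a filter, 90.4% without DMSO replicate 2 and 75.1% to 84.5% under the other settings. The count of filament members called was 0 except without a filter, where it was 1 (*VIM*, log2 fold change -0.33, adjusted p = 0.0445, edgeR); the cause was not tested. Partner genes called were 3, against 7 without a filter, 4 with the replicate block and 2 with DESeq2. Across the fits without 1 library there were 2 to 3. The sign of *KRT18* turned without DMSO replicate 2, its log2 fold changes without one library being from -0.17 to 0.013. The ratio of *VIM* to the simple keratins kept its direction, from -0.47 to -0.32 on the log2 scale, and that of *KRT8* to *KRT18*, from 0.08 without EZH2i replicate 3 to 0.33 without EZH2i replicate 1.

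Replicate numbers did not pair the libraries: deviations of same-numbered libraries correlated at -0.0511, -0.0175 and -0.0170. With the replicate block 599 genes were called (450 higher, 149 lower), and 0 filament members; the sign-flip p of the ratio of *VIM* to the simple keratins was 0.25, the smallest that 3 pairs allow, and that of *KRT8* to *KRT18* was 0.5. A level of 136 to 231 reads limits *NES*, and *KRT15*, at 3 to 22 reads, could not be tested.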
